A study of Mus musculus with 6 samples.

Results

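The salt-inducible kinases Sik1, Sik2 and Sik3, the CREB coactivators Crtc1, Crtc2 and Crtc3, the transcription factors Creb1 and Crem, and the CREB target Nr4a1 were described in mouse embryonic stem (ES) cells that had lost the cohesin subunit Scc1, also named Rad21. All probe sets that the platform annotation gives to exactly 1 of these 9 gene symbols were taken, which yielded 9 probe sets, 1 per gene, of 35556 on the array. The set was chosen with the fall of Sik1 in these arrays known, so the values of its members are a description and carry no test. Tests are given for other genes of the pathway, taken by role, and for the genes next to the members on the chromosomes. The pathway lists were also drawn up with earlier results known, so their counts are not independent evidence.

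Affymetrix Mouse Gene 1.0 ST arrays measured the total RNA of 6 cultures, 3 of genotype Scc1 lox/lox ERT2-Cre and 3 of genotype Scc1 wt/wt ERT2-Cre. Cre excises Scc1 in lox/lox cells, where lox sites flank both alleles, and leaves it in wt/wt cells, which have no such sites. All 6 cultures received 4-hydroxytamoxifen (4-OHT) for 24 h, which lets the ERT2-Cre fusion enter the nucleus. The sample labels give its dose as 80 nM and the series' design text as 80 mM. The cells were female, of mixed C57BL/129 background, and grew on laminin in N2B27 medium with LIF and the 2i pair of kinase inhibitors. Both genotypes thus carried Cre and drug, and the comparison holds the loss of Scc1 together with anything else in which the lines differed. The sources used here name neither the promoter that drives ERT2-Cre nor whether each line was 1 clone. Expression values are on the log2 scale of the RMA summary, in which 1 unit is a doubling of signal.

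Salt-inducible kinases belong to the family of kinases related to AMPK and are switched on by the tumour suppressor kinase LKB1. Active SIKs phosphorylate the CRTC coactivators and the class IIa histone deacetylases, which are then bound by 14-3-3 proteins and held in the cytoplasm. When cAMP rises, protein kinase A (PKA) phosphorylates the SIKs and blocks them, CRTCs enter the nucleus, and they join CREB at cAMP response elements (CREs) in promoters such as that of Nr4a1. Sik1 is itself known to be transcribed in response to cAMP through CREB, so it is counted as a feedback gene of the pathway it restrains. These steps run largely through phosphorylation, which an expression array does not measure.

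CREB acts at promoters, and those of the members were read for its element. RefSeq windows of the GRCm38.p6 build, 250 bases before to 50 bases after each gene's start, were on hand for 6 of the 9 members, and were searched for the full CRE, TGACGTCA, and for its 5-base core, TGACG, on both strands. The full element contains the core on each strand. The core was in the windows of 3 members, Sik2, Sik3 and Nr4a1, and not in those of Crtc1, Crtc3 and Creb1, and 23.0% of 27025 genes had it. None of the 6 members with a window held the full element, which was found for 2.03% of all genes. No window was on hand for Sik1, Crtc2 or Crem, so their promoters were not searched. A match is a match of letters and is not a measured binding site. The 3 windows are printed because Nr4a1 is the target gene of the set and Sik2 and Sik3 are the sister kinases of Sik1. Capitals mark each core on either strand.
Nr4a1, chr15:101266596-101266895, plus strand: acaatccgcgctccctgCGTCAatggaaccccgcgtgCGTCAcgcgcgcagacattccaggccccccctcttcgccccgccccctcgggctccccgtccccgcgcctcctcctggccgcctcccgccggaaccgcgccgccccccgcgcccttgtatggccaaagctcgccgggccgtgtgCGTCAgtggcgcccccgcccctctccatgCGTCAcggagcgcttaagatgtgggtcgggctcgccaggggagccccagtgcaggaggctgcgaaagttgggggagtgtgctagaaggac
Sik2, chr9:51009024-51009323, minus strand: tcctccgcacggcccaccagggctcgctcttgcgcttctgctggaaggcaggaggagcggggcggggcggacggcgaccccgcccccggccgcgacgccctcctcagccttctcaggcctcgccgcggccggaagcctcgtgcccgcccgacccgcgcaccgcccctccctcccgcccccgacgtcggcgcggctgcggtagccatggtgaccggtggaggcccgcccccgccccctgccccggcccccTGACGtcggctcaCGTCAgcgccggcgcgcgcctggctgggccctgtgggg
Sik3, chr9:46012570-46012869, plus strand: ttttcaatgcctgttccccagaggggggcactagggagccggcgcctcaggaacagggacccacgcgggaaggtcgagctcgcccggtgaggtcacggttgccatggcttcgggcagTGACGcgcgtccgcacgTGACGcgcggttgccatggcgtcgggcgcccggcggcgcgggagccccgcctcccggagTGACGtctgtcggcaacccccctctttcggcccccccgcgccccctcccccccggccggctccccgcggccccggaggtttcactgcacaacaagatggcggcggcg
Nr4a1 held 4 cores, all on the reverse strand, whose first letters lie 233, 213, 69 and 40 bases before the start. A count of 4 or more was reached by 0.231% of 32851 windows. Nr4a1 was taken into the set as a CREB target, so its count describes that choice. Sik3 had 3 cores on the forward strand, 133, 116 and 57 bases before the start, a count that 1.03% of windows reached. Sik2 had 2, on opposite strands, the first 1 base before the start and the other 13 bases after it.

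The targeted gene was checked first. Rad21 had log2 values of 6.08, 6.06 and 6.14 on the lox/lox arrays, against 10.05, 9.99 and 10.02 on the wt/wt arrays. The groups were 3.86 log2 units apart at their closest, so each array matched its label. All 10 markers of ES cells lay, on average over the arrays, above at least 86.7% of the probe sets. In lox/lox cells 5 of these 10 fell in limma, beside 6.16% of all genes, all 10 had a negative difference (median log2 difference -0.30), and in 9 the groups did not overlap, or 90.0% beside 22.8%. Their summed linear signal spanned 21600 to 23710 on lox/lox arrays and 26130 to 27650 on wt/wt arrays. Of 10 fibroblast markers, which would show feeder cells, 0 passed in limma and 1, Dcn, had an unadjusted p under 0.05, with lox/lox higher. Their sum spanned 345.8 to 384.4 on lox/lox arrays and 325.6 to 391.6 on wt/wt arrays. On average the markers were brighter than 6.47% (Lum) to 67.8% (Thy1) of the probe sets, and 5 of the 10 lay above the array median. Whether feeder cells were present was not tested. The part of the ES cell markers in the fall of Sik1 and in the results that follow was not tested. Of all 19938 genes, 6.16% passed the limma test after adjustment (threshold 0.05), of which lox/lox cells had 2.55% above and 3.61% below wt/wt cells. The arrays of the genotypes did not overlap in 22.8% of genes, in 10.1% with lox/lox above and in 12.7% with lox/lox below. Inside the genotypes 2 arrays stood apart. When each array was taken relative to its genotype's mean, the leading principal component, with 41.2% of the variance, had loadings of 0.537 for lox/lox replicate 3 and 0.576 for wt/wt replicate 2, and of -0.475 to -0.101 for the other 4.

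Sik1, the kinase that cAMP induces, was the member with the large difference. It had log2 values of 6.41, 6.52 and 6.74 on the lox/lox arrays, against 8.35, 8.44 and 8.46 on the wt/wt arrays. Every lox/lox array was lower, and the groups were 1.61 log2 units apart at their closest. The lox/lox arrays averaged 6.56 ± 0.17 and the wt/wt arrays 8.41 ± 0.06 (SD, n = 3 each), a log2 difference of -1.86 (SE 0.10) or a 3.62-fold lower signal. Sik1 stood 10th among the lower genes by size of difference, and 99.9% of all genes had a smaller absolute difference. In lox/lox cells its signal still exceeded that of 69.4% to 72.6% of the probe sets of the array, and in wt/wt cells that of 86.8% to 87.6%. Within a genotype the lox/lox arrays spread over 0.34 log2 units and the wt/wt arrays over 0.10. In RNA of whole cultures, fewer cells with Sik1 RNA and less of it per cell cannot be told apart. Without the 2 arrays that stood apart the difference was -1.94, and with each array left out in turn it lay between -1.95 and -1.78.

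**Figure D1:**
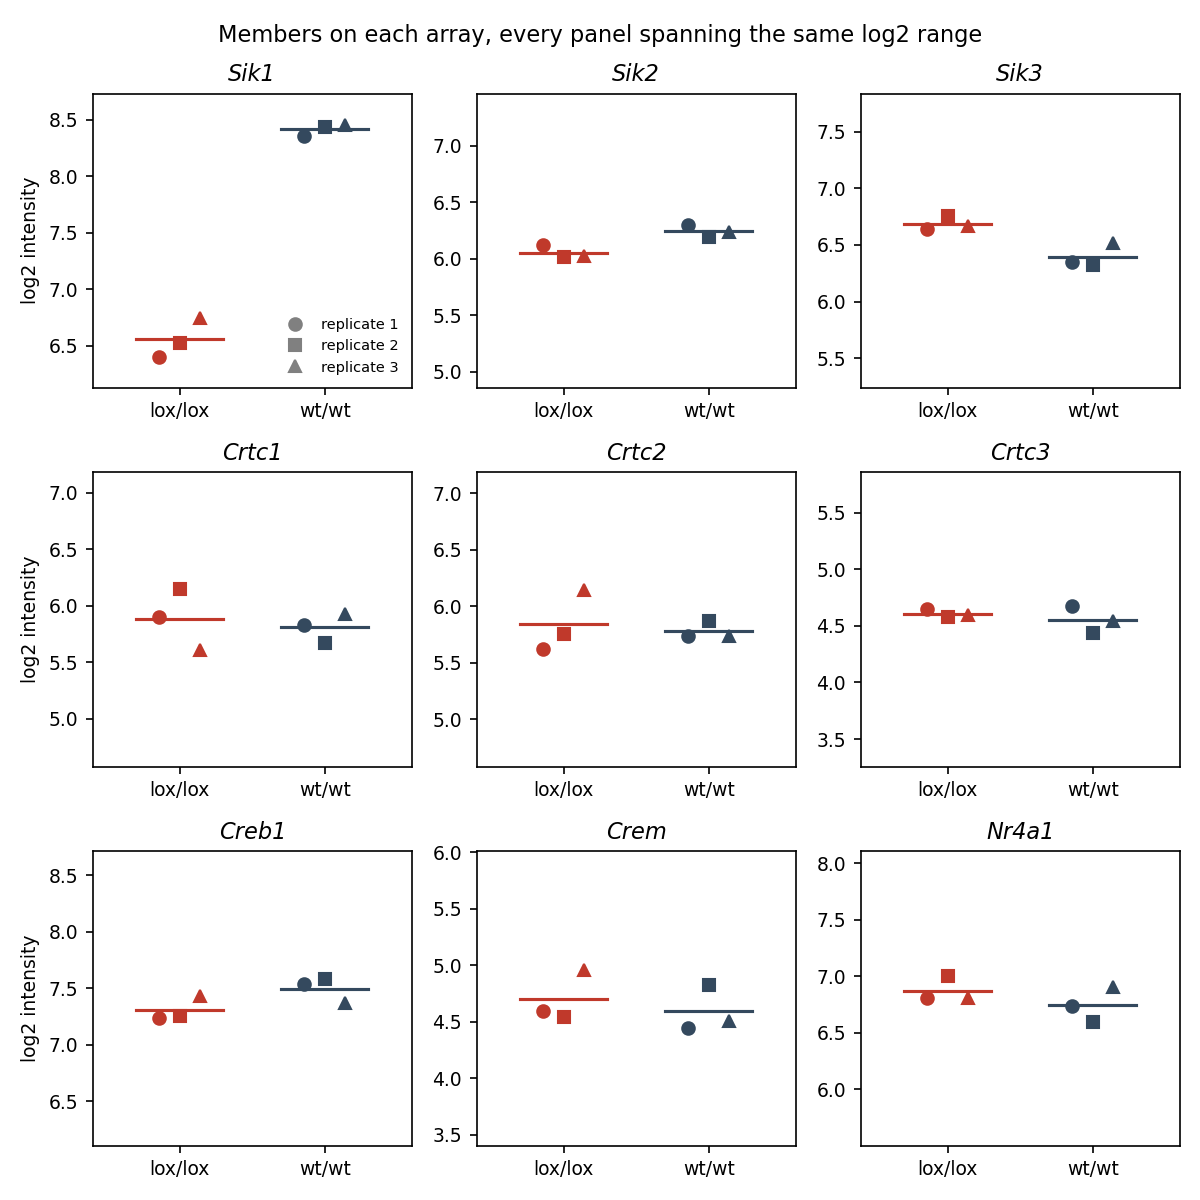
Log2 intensity (vertical axis) of the 9 members on each array, lox/lox in red at left and wt/wt in blue at right, with a line at each mean and a symbol for each replicate number. Every panel spans the same log2 range, so the gap of 1.61 in Sik1 can be set against the other panels, 6 of which have overlapping groups.

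The sister kinases differed from wt/wt by small amounts and in opposite directions. Sik2, a SIK best known from fat tissue, had 6.12, 6.02 and 6.02 in lox/lox cells, against 6.30, 6.20 and 6.24 in wt/wt cells. Its lox/lox arrays all lay lower, by 0.07 at the closest, and the log2 difference was -0.19 (SE 0.08). Sik3, the SIK linked in mice to sleep need and skeletal growth, had 6.64, 6.75 and 6.67 in lox/lox cells, against 6.35, 6.33 and 6.52 in wt/wt cells. Its lox/lox arrays all lay higher, by 0.12 at the closest, with a log2 difference of 0.29 (SE 0.08) or 1.22-fold. The pooled SD of Sik2 within genotypes was 0.06, and 11.4% of all genes had a smaller one. The differences of both kept their sign with each array left out, between -0.23 and -0.16 for Sik2 and between 0.25 and 0.35 for Sik3. All 3 kinases were thus among the genes whose groups did not overlap, beside the 22.8% of all genes that did so, a share that cannot be read as a result since Sik1 led to the choice of the set.

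The 3 coactivators, which carry the pathway's signal into the nucleus, overlapped between the genotypes. Crtc1, the CRTC best known from neurons, had 5.90, 6.15 and 5.61 in lox/lox cells, against 5.83, 5.67 and 5.93 in wt/wt cells. Its lox/lox arrays held both the highest and the lowest value of all 6. The log2 difference was 0.07 (SE 0.13), and it turned to -0.06 without lox/lox replicate 2. Crtc2, which in liver drives the genes of glucose production, had 5.62, 5.75 and 6.15 in lox/lox cells, against 5.74, 5.87 and 5.74 in wt/wt cells. Only lox/lox replicate 3 lay above the wt/wt arrays. The log2 difference of 0.05 (SE 0.13) became -0.10 without that array. Crtc3 had 4.65, 4.58 and 4.59 in lox/lox cells, against 4.67, 4.44 and 4.54 in wt/wt cells, and a log2 difference of 0.06 (SE 0.08). All lox/lox values of Crtc3 lay within the wt/wt range, and without wt/wt replicate 2 the difference was -0.0003. The 95% intervals of the 3 differences were -0.22 to 0.36 for Crtc1, -0.22 to 0.33 for Crtc2 and -0.13 to 0.24 for Crtc3. Crtc3 was dim, brighter than 42.5% to 45.3% of the probe sets, where background in the signal understates a difference.

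Among the factors, Creb1, the bZIP protein that binds the CRE and recruits CRTCs, had 7.24, 7.25 and 7.43 in lox/lox cells, against 7.54, 7.58 and 7.37 in wt/wt cells. The groups overlapped only through lox/lox replicate 3 and wt/wt replicate 3. The log2 difference was -0.19 (SE 0.09, 95% interval -0.38 to 0.01), and it stayed between -0.25 and -0.14 with each array left out. Crem makes activators and, from an internal promoter, the short repressor ICER, and the annotation lists 10 RefSeq transcripts for its 1 probe set, so the isoforms were not measured apart. Crem had 4.60, 4.54 and 4.96 in lox/lox cells, against 4.45, 4.82 and 4.51 in wt/wt cells. In each genotype a single array stood above the other 2, and the log2 difference was 0.10 (SE 0.13), or -0.03 without lox/lox replicate 3. Crem too was dim, brighter than 41.0% to 51.3% of the probe sets.

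Nr4a1, an orphan nuclear receptor and immediate early gene, was the target in the set. It had 6.81, 7.005 and 6.80 in lox/lox cells, against 6.74, 6.60 and 6.90 in wt/wt cells. The groups overlapped, with wt/wt replicate 3 above 2 of the lox/lox arrays. The log2 difference was 0.13 (SE 0.10, 95% interval -0.09 to 0.34), between 0.05 and 0.20 with each array left out. Across the 9 members the median log2 difference was 0.06, beside -0.01 over all genes, and without Sik1 the members ran from -0.19 to 0.29. Of the 9, 1 passed the adjusted threshold, Sik1, by which the set was chosen, beside 6.16% of all genes.

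**Figure D2:**
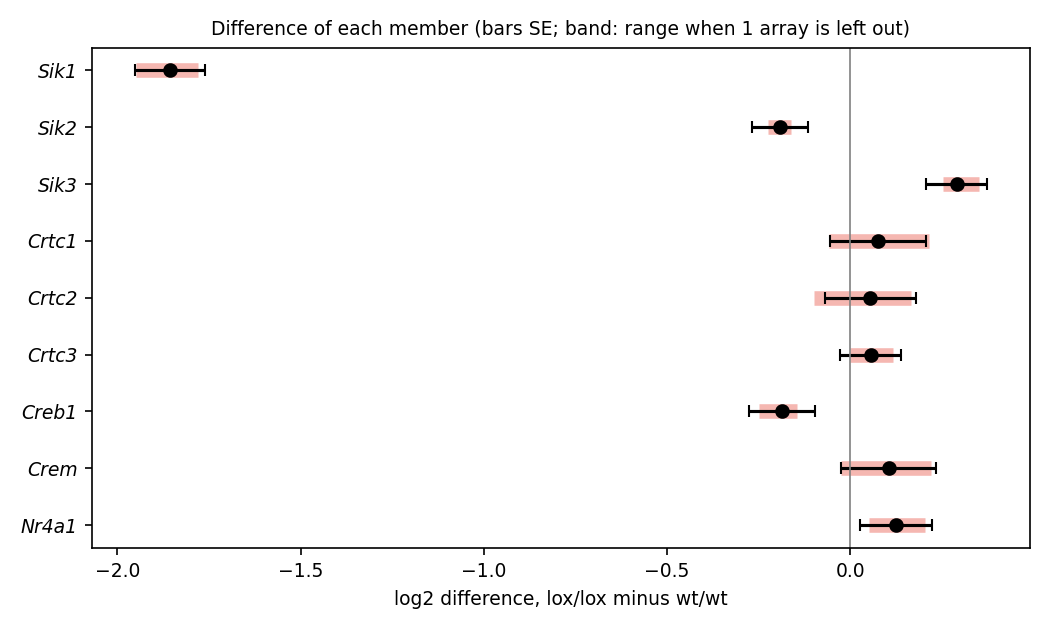
Log2 difference of each member, lox/lox minus wt/wt (horizontal axis), as a point with its standard error; the pale band is the range when 1 array is left out. Sik1 lies at -1.86, the other 8 members lie between -0.19 and 0.29, and the bands of Crtc1, Crtc2, Crtc3 and Crem reach across 0.

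Part of the spread within genotypes lay on the 2 arrays that stood apart, lox/lox replicate 3 and wt/wt replicate 2. Each member deviated there from the other arrays of its genotype with the same sign in both genotypes, 4 of them up and 5 down, as 61.6% of all genes did. These arrays were singled out for deviating alike, so the count is a description. Crem was higher there by 0.39 within lox/lox and by 0.34 within wt/wt, Crtc2 by 0.46 and 0.13, and Creb1 by 0.19 and 0.12. Crtc1 differed by -0.42 within lox/lox and by -0.21 within wt/wt, and Nr4a1 by -0.10 and -0.22. These 5 genes had their highest or their lowest value of the genotype on the array that stood apart, in both genotypes. The other 4 deviated less in at least 1 genotype, Sik1 by 0.28 within lox/lox and 0.03 within wt/wt, Sik2 by -0.05 and -0.07, Sik3 by -0.03 and -0.11, and Crtc3 by -0.02 and -0.17. For Crem, Crtc1 and Crtc2 the pooled SD within genotypes was 0.22, 0.21 and 0.20, larger than in 93.7%, 93.6% and 91.5% of all genes, where the median SD was 0.11. What set these arrays apart was not tested, and the labels name no batch.

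**Figure D3:**
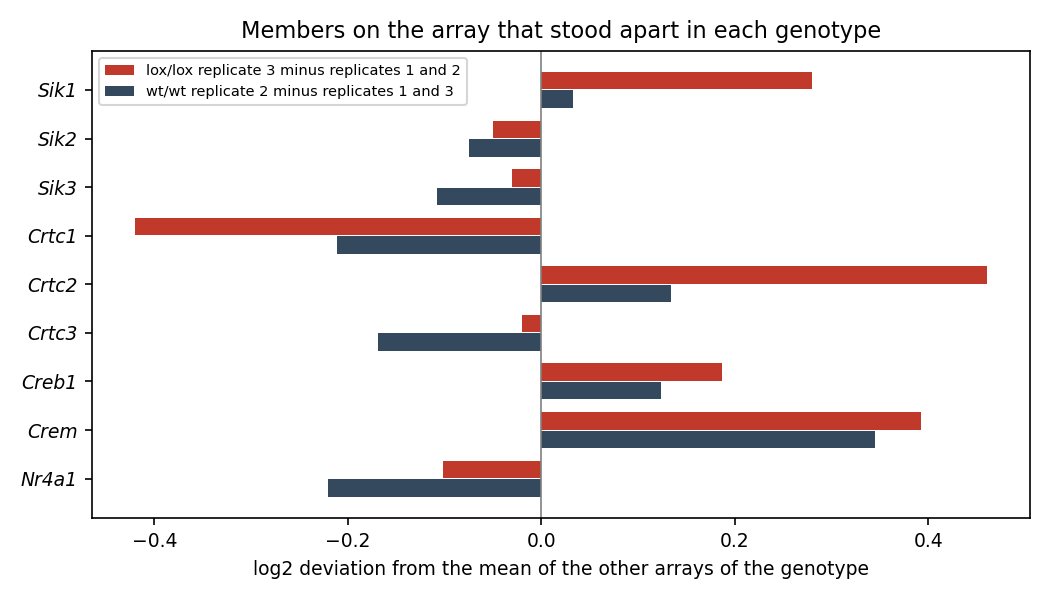
Deviation of each member, in log2 units (horizontal axis), on lox/lox replicate 3 (red) and on wt/wt replicate 2 (blue) from the mean of the other 2 arrays of the same genotype. The 2 bars of each gene point the same way, and they are longest for Crtc2 (0.46 in lox/lox) and Crtc1 (-0.42 in lox/lox).

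Other targets of CREB were then examined, from a list of 34 genes known to respond to cAMP, of which 33 were measured. The study's arrays showed 2 higher and 1 lower at the adjusted threshold in limma, or 9.09% beside 6.16% of all genes, with a median log2 difference of -0.04. Trh, the gene of thyrotropin-releasing hormone, had 12.35, 12.18 and 12.08 in lox/lox cells, against 9.97, 9.29 and 9.46 in wt/wt cells. Its rise of 2.63 on the log2 scale (SE 0.15, adjusted p = 1.84e-05 in limma), or 6.18-fold, ran opposite to the change of Sik1, and Trh had been known to differ when the list was drawn up. Without Trh, 2 of 32 targets passed, or 6.25%. Btg2, an antiproliferative gene that p53 also induces, was 1.28-fold higher (log2 difference 0.36, SE 0.08, adjusted p = 0.0319 in limma). Its call was lost with any 1 of the 6 arrays left out, with an adjusted p between 0.0556 and 0.091. Ier2, an immediate early gene, fell to 7.995, 8.02 and 8.04 in lox/lox cells, against 8.39, 8.47 and 8.46 in wt/wt cells (log2 difference -0.42, SE 0.07, adjusted p = 0.00709 in limma). Trh and Ier2 passed in all 6 fits without 1 array.

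The remaining 30 measured CREB targets did not pass. Over all 33, called genes included, the groups did not overlap in 27.3%, beside 22.8% of all genes. Lox/lox was higher in 2 of these genes and lower in 7. An unadjusted p under 0.05 was found for 6 of the 33. The uncalled targets named next were chosen by role after their values were seen, and the groups of each overlapped. The paralogues of Nr4a1 had log2 differences of -0.03 for Nr4a2 and -0.08 for Nr4a3. Of the immediate early genes, Fos had -0.12 (95% interval -0.33 to 0.08) and Egr1 0.19 (-0.06 to 0.43). The phosphatase gene Dusp1 had 0.06 (-0.17 to 0.30), the clock gene Per1 -0.16 (-0.36 to 0.05), and the cAMP phosphodiesterase genes Pde4b and Pde4d -0.01 and 0.06. Promoter windows were on hand for 25 genes of this list. A CRE core was in 21 of them, or 84.0% beside 23.0% of all genes, and a full CRE in 6, or 24.0% beside 2.03%. The genes of the list were picked as CREB targets, so these shares describe how the list was made. No window was on hand for the called gene Ier2. The windows of the called genes Trh and Btg2 are printed to show what these promoters hold, again with each core in capitals.
Trh, chr6:92244601-92244900, minus strand: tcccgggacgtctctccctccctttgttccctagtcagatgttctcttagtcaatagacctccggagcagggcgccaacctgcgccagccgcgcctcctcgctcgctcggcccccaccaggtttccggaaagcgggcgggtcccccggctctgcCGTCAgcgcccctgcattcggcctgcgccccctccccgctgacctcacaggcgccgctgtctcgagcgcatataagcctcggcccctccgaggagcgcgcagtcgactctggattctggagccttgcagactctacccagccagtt
Btg2, chr1:134079106-134079405, minus strand: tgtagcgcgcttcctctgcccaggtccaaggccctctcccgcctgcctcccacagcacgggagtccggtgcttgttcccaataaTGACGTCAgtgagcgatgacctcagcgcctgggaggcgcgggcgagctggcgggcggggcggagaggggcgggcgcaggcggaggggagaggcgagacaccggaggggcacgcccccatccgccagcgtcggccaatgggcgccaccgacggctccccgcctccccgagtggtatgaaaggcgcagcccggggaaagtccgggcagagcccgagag
Trh had 1 core, on the reverse strand 96 bases before the start, and Btg2 the full palindrome, whose overlapping cores begin 166 and 163 bases before the start. A relation between the cores in a window and the difference of its gene was not tested, and near matches to the CRE were not searched for.

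Upstream of the SIKs lie the cAMP and PKA genes. Of 29 measured genes for G proteins, adenylate cyclases, PKA subunits, PKA inhibitors, phosphodiesterases and anchoring proteins, 0 rose and 1 fell in limma, or 3.45% beside 6.16% of all genes (median log2 difference -0.06). An unadjusted p under 0.05 was found for 7 of them. The groups did not overlap in 27.6%, beside 22.8% of all genes, with lox/lox higher in 3 genes and lower in 5. The gene that fell was Pde3b, a phosphodiesterase that breaks down cAMP in fat and liver, with 4.13 ± 0.17 for lox/lox and 4.62 ± 0.20 for wt/wt arrays (SD, n = 3 each; log2 difference -0.49, SE 0.12, adjusted p = 0.0379 in limma). Pde3b was dim, brighter than 31.6% to 48.0% of the probe sets. Pde3b still passed when wt/wt replicate 1 or lox/lox replicate 3 was left out, but not in the other 4 such fits, where the adjusted p reached 0.155. Of the PKA subunits, the regulatory gene Prkar2a had a log2 difference of -0.45 (adjusted p = 0.0701 in limma), Prkar1a one of -0.17, and the catalytic Prkacb one of -0.12. The phosphodiesterase gene Pde8a had 0.26 (adjusted p = 0.134 in limma), with every lox/lox array higher. None of these PKA genes passed, nor did Pde8a, and all were named after their values were seen. Gnas and the catalytic Prkaca were not analysed here.

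The kinases nearest to the SIKs were LKB1, its partners and the kinases related to AMPK. Of 17 measured genes of this list, 3 fell and 0 rose in limma, or 17.6% beside 6.16% of all genes. The median log2 difference was -0.08, beside -0.01 over all genes, and 14 of the 17 differences were negative. In the other lists 19 of 33 CREB targets and 17 of 29 cAMP and PKA genes had negative differences. So had 12 of 16 CREB and ATF factors and 10 of 18 SIK substrates and partners. Mark1, a kinase that acts on microtubule-associated proteins, had a log2 difference of -0.45 (SE 0.11, adjusted p = 0.0346 in limma). Nuak2, known for control of the actin cytoskeleton, had -0.36 (SE 0.09, adjusted p = 0.0393 in limma). Prkaa2, a catalytic subunit of AMPK, had -0.39 (SE 0.10, adjusted p = 0.0452 in limma). The arrays of the genotypes did not overlap in any of these 3, but each gene kept its call in just 1 of the 6 fits that left out an array. Mark1 passed only without lox/lox replicate 3, Nuak2 only without lox/lox replicate 2, and Prkaa2 only without wt/wt replicate 3. The highest adjusted p was 0.131 for Mark1 and 0.167 for Prkaa2, both without lox/lox replicate 2, and 0.141 for Nuak2 without lox/lox replicate 1. Without the 2 arrays that stood apart, 0 of the 17 passed, and under quantile normalization Prkaa2 did not (adjusted p = 0.0504). Stk11, which encodes LKB1, had 8.79 ± 0.03 in lox/lox cells and the same in wt/wt cells (SD, n = 3 each), and a 95% interval of its log2 difference from -0.16 to 0.16. The second catalytic AMPK gene, Prkaa1, had a log2 difference of 0.22 that did not pass (adjusted p = 0.355 in limma). Mark4 had one of 0.44 that did not pass either (adjusted p = 0.153 in limma), with every lox/lox array higher. Stk11, Prkaa1 and Mark4 were named after their values were seen. In the list the groups did not overlap in 35.3%, beside 22.8% of all genes, with lox/lox higher in 1 gene and lower in 5.

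**Figure D4:**
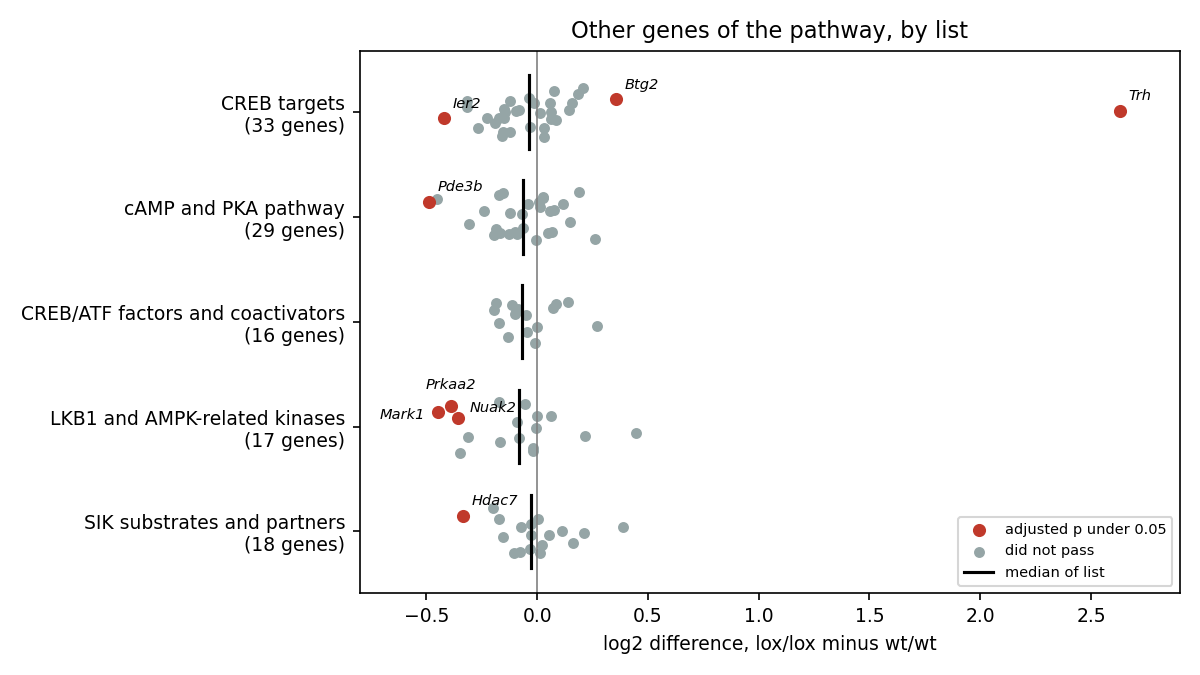
Log2 difference, lox/lox minus wt/wt (horizontal axis), of every measured gene in the 5 lists of pathway genes; vertical scatter only separates points, red points passed an adjusted p under 0.05, and a black line marks each list's median. Trh stands alone at 2.63, and the medians lie between -0.08 and -0.03.

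Of the substrates and partners of the SIKs, 18 genes were measured, and 0 rose and 1 fell in limma, or 5.56% beside 6.16% of all genes (median log2 difference -0.03). The gene that fell was Hdac7, a class IIa histone deacetylase, with 5.58 ± 0.07 for lox/lox and 5.92 ± 0.08 for wt/wt arrays (SD, n = 3 each; log2 difference -0.33, SE 0.08, adjusted p = 0.0359 in limma). Its call was lost with any 1 of the 6 arrays left out, with an adjusted p of up to 0.114 without wt/wt replicate 3. Of the other class IIa genes, Hdac4 and Hdac5, named after their values were seen, had log2 differences of 0.02 and 0.02. Hdac9, also of class IIa and in the list, did not pass, and its values are not given here. Mef2b was not analysed here. Among the other CREB and ATF factors and their acetyltransferases, 0 of 16 passed in limma and 1 had an unadjusted p under 0.05, with a median log2 difference of -0.07. The smallest p were those of Creb3l2, a factor of the secretory pathway, with 0.27 (adjusted p = 0.162 in limma), and Crebzf, with -0.19 (adjusted p = 0.32 in limma). Named after their values were seen, Atf1, which pairs with Creb1, had a log2 difference of -0.05, and the acetyltransferases Crebbp and Ep300, which CREB recruits, had -0.0004 and -0.17.

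Cohesin shapes contacts along chromosomes, so the 10 measured genes on each side of each member were compared as well. Of 170 such neighbours, 5 were higher and 5 lower in limma, or 5.88% beside 6.16% of all genes, and their median log2 difference was -0.01. Sik1, on chromosome 17, lies between Cryaa, a lens crystallin gene, and Hsf2bp, a meiotic gene, with log2 differences of 0.13 and 0.03. Of its 20 neighbours 2 passed, both higher, whereas Sik1 itself was lower. Notch3, a Notch receptor gene 4 measured genes away, was 1.51-fold higher (log2 difference 0.59, SE 0.09, adjusted p = 0.0029 in limma). Wiz, a zinc finger partner of the histone methyltransferases G9a and GLP that lies 8 genes away, was 1.36-fold higher (adjusted p = 0.0157 in limma). Wiz no longer passed in 3 of the 6 fits that left out an array, those without wt/wt replicate 2, wt/wt replicate 3 and lox/lox replicate 2 (adjusted p up to 0.0795). Cbs, for an enzyme of transsulfuration 3 genes away, was named after its values were seen and had -0.46 (adjusted p = 0.0598 in limma).

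Sik2 and Sik3 share chromosome 9, with 46 measured genes between them. Near Sik2, Cryab, a small heat shock protein gene 6 genes away, was lower by 0.64 on the log2 scale (adjusted p = 0.012 in limma), and its call was lost without wt/wt replicate 3 (adjusted p = 0.0602) and without both arrays that stood apart. Near Sik3, 0 of 20 passed in limma and 2 had an unadjusted p under 0.05. Creb1 on chromosome 1 had 3 called neighbours of 20, and they moved both ways. Adam23, an adhesion gene 7 genes away, was 2.41-fold higher (log2 difference 1.27, SE 0.11, adjusted p = 0.000148 in limma), and the imprinted gene Zdbf2 next to it was 1.62-fold lower (log2 difference -0.69, SE 0.10, adjusted p = 0.00189 in limma). The other was a gene model known by a clone, at 0.42. Next to Crtc3 on chromosome 7, Iqgap1, a scaffold of the cytoskeleton, was 1.41-fold lower (adjusted p = 0.00458 in limma).

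Crtc2 on chromosome 3 had 2 lower neighbours, each 10 genes away. Hax1, a mitochondrial survival gene, had -0.44, and its call held in only 2 of the 6 fits that left out an array, which lacked wt/wt replicate 1 or lox/lox replicate 3 (adjusted p up to 0.105 in the others). S100a13, a calcium-binding protein gene, had -0.37 and passed in only 1 fit without 1 array, that without lox/lox replicate 3, with an adjusted p of up to 0.131 in the others. Near Nr4a1 on chromosome 15, which Rad21 shares, Galnt6, a glycosyltransferase gene 9 genes away, was 1.46-fold higher (adjusted p = 0.00841 in limma). Near Crtc1 on chromosome 8, 0 of 20 passed in limma, with 4 at an unadjusted p under 0.05. Crem was the first measured gene of chromosome 18, so it had 10 neighbours, all on 1 side, of which 0 passed in limma and 2 had an unadjusted p under 0.05. Notch3, Iqgap1, Zdbf2, Adam23 and Galnt6 passed in all 6 fits without 1 array.

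**Figure D5:**
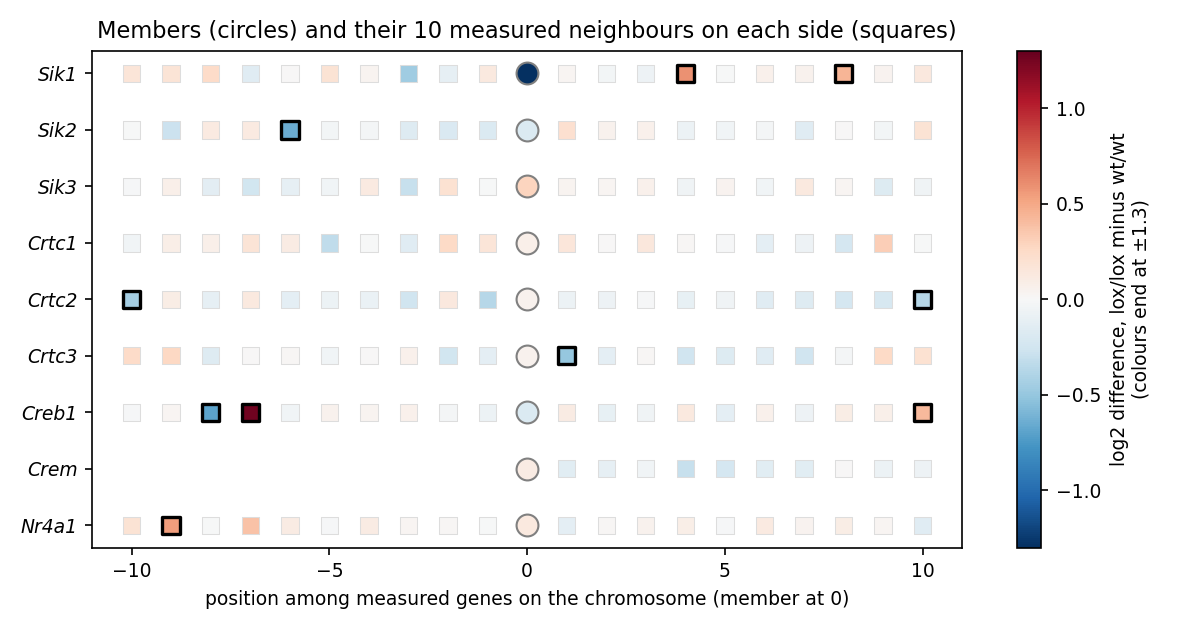
Log2 difference, lox/lox minus wt/wt (colour), of each member (circle at 0) and of the measured genes up to 10 places away on its chromosome (squares); a black outline marks an adjusted p under 0.05. The 10 outlined squares are 5 red and 5 blue, and the 2 beside Sik1 are red while Sik1 is blue.

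The genes whose values were most like those of Sik1 were sought over the 6 arrays, by the root mean square difference after each gene was centred on its own mean. The 5 nearest were Prdm14, Ets2, Abca1, Zbtb10 and Elf3, and all lay on other chromosomes than Sik1. Prdm14, which acts in pluripotency and in primordial germ cells, differed from Sik1 by 0.08 log2 units on average and had 6.84, 6.85 and 7.19 in lox/lox cells, against 8.57, 8.88 and 8.87 in wt/wt cells. In Prdm14 as in Sik1, lox/lox replicate 3 was the highest of its genotype and wt/wt replicate 1 the lowest. Ets2, an ETS factor of the trophoblast, differed by 0.13 and lay between 5.96 and 6.41 on lox/lox arrays and between 7.62 and 7.91 on wt/wt arrays. The cholesterol exporter Abca1, the zinc finger gene Zbtb10 and the epithelial ETS factor Elf3 differed by 0.14, 0.15 and 0.18. These genes were picked for their likeness, so their own falls in lox/lox cells are a description.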

How the data were processed

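Expression was measured on 6 arrays, 3 per genotype. The deposited values are on a log2 scale. The submitters' processing notes name RMA and affy, with versions, options and genome build not given in the sources used here. RMA sets the arrays to a like distribution, so a global change of RNA per cell cannot be seen, and background compresses differences of dim genes. No scanner files were used, so background correction could not be varied.

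Of 35556 probe sets, 21789 had 1 gene symbol in the platform annotation, 1621 several and 12146 none. Each gene was represented by its brightest single-symbol probe set, which gave 19938 genes, of which 19856 had a place in the RefSeq gene table. Genotypes were compared, lox/lox minus wt/wt, with limma 3.58.1 in R 4.3.3 (lmFit, eBayes; 6.14 prior and 4 residual degrees of freedom) and Benjamini-Hochberg adjustment over all genes at 0.05. The p-values measure the spread between the 3 replicate cultures of each genotype, and the number of arrays limits precision. They do not cover other differences between the lines. Correlations between arrays ran from 0.9892 to 0.9947, so none was a copy.

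The members and lists were chosen with earlier results of these data known. Named were all members, up to 6 called genes of each list (or the 2 of smallest p), called neighbours, and the 5 genes most like Sik1; others are marked as named after their values were seen. On simulated lox/lox and wt/wt arrays with 200 of 19938 genes changed, 64%, 94% and 100% of log2 changes of 0.5, 1 and 2 were recovered, and 3.3% of calls were false. The simulated noise was independent between genes and arrays. These rates thus do not cover deviations that many genes share on an array, as on the 2 arrays that stood apart. Alternatives were quantile normalization, median centring, a dim filter, eBayes with trend and robust, all probe sets, a replicate block and leaving out arrays. Same-numbered replicates did not pair (deviation correlations 0.10, -0.23 and -0.10).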

Additional observations from a re-analysis of the deposited data

How the results depend on the processing

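The difference of each member moved by less than its pooled SD within genotypes under all alternatives run, but most of these could not have shown otherwise. The dim filter, trend and robust, all probe sets and the replicate block leave a member's difference as it is or drop the member. Leaving out 1 of 3 arrays cannot move it by more than that SD. Median centring moves the difference of every gene by the same amount, set by the array medians. That amount was below the lowest SD of a member, 0.06 in Sik2, whose difference went from -0.19 to -0.21. Only quantile normalization and the fit without both arrays that stood apart could have moved a member by its SD. The differences of Crtc1, Crtc2, Crtc3 and Crem turned sign without 1 array, as given in the report. That of Crtc2 also turned with lox/lox replicate 3 and wt/wt replicate 2 both left out, a setting added after seeing the data. The count of members whose groups did not overlap, 3, was 3 to 5 without 1 array and 5 without both arrays that stood apart. Groups of fewer arrays overlap less often. The share of all genes, 22.8% with all 6 arrays, was not counted for the smaller groups. The higher counts thus cannot be read as a result about the members. The calls over all genes, 1228, numbered 626 to 1132 without 1 array (806 when wt/wt replicate 2 was left out, 661 for wt/wt replicate 3 and 626 for lox/lox replicate 2) and 697 without both arrays. The count of called CREB targets, 3, was 2 or 3 under every alternative. Median centring lost Btg2 (adjusted p = 0.0625), and of the 3 calls without wt/wt replicate 2, 2 were shared and 1 was another gene, lower. The 1 called cAMP and PKA gene became 0 with the filter on dim genes, which removed Pde3b before the test. The count was 2 with trend and robust, 2 with the replicate block, and 0 to 3 without 1 array (3 without lox/lox replicate 3). The 1 call under quantile normalization (higher) and that without both arrays (lower) were other genes. The count of called LKB1 and AMPK-related kinases, 3, was 1 with trend and robust, 1 with the replicate block, 2 under quantile normalization, 0 to 2 without 1 array and 0 without both arrays; of the 2 calls without lox/lox replicate 3, 1 was another gene. The 1 called SIK substrate gene became 0 with trend and robust, 0 with the replicate block, 0 to 1 without 1 array (without lox/lox replicate 1 it was another gene, and higher) and 0 without both arrays. The CREB and ATF factors had 0 calls throughout. The count of called neighbours, 10, was 5 to 9 without 1 array (5 without wt/wt replicate 3), 7 without both arrays, 15 with trend and robust, 14 under quantile normalization, 13 with median centring, 13 with the filter on dim genes, 11 with all probe sets and 9 with the replicate block. The cause of these moves was not tested. The replicate block also ended the calls of Hdac7, Nuak2, Prkaa2 and S100a13 (adjusted p = 0.0585 for S100a13); under it 1086 genes were called over all genes, and 1 of 6 samples correlated best with its own number.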
